A study of Homo sapiens with 4 samples.

Results

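The 54 genes described here are Wnt ligands, their receptors and coreceptors, and the proteins that carry or restrain the signal. They were chosen by gene symbol from the 27452 genes of an RNA sequencing series; the rule uses no measured value, but it was set with earlier results of these data known. The series compared cells labelled as HepG2, an established human hepatoma line, that carried a short hairpin RNA of 1 of 2 kinds: a control hairpin (Ctrl shRNA), or one directed at STAT3, a transcription factor downstream of cytokine receptors (STAT3 shRNA). Both groups were grown in DMEM with fetal bovine serum, and each had 2 libraries. Nothing in the labels ties the libraries of a group to different cultures or to 1 hairpin or several. The p-values below therefore measure the spread between these libraries only, and that spread may be technical. A hairpin can act on RNAs besides its target, and such effects cannot be told apart here from those of lower STAT3.

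Wnt proteins are secreted lipid-modified ligands that bind a Frizzled receptor together with a coreceptor. With LRP5 or LRP6 as coreceptor, Dishevelled proteins are recruited, the destruction complex of AXIN, APC and GSK3 is held in check, and beta-catenin (CTNNB1) reaches the nucleus, where it acts with TCF and LEF factors. With ROR1 or ROR2, ligands such as WNT5A signal without beta-catenin. Cells limit the pathway through its own targets: AXIN2 rebuilds the destruction complex, RNF43 and ZNRF3 remove Frizzled receptors from the cell surface, and NKD proteins act on Dishevelled. R-spondins bound to LGR receptors act the other way, as they hold RNF43 and ZNRF3 back. In liver the pathway sets the gene programme of hepatocytes near the central vein. HepG2 is known to carry a deletion in CTNNB1 that stabilises beta-catenin.

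The Ctrl shRNA libraries held 19283150 and 20133064 counts, the STAT3 shRNA libraries 25862027 and 17694642. A count of 3 reads in a single library corresponded to 0.113 to 0.163 CPM (a gene's counts scaled to library size by TMM). STAT3 went from 245.03 and 244.3 CPM under Ctrl shRNA to 34.7 and 36.1 CPM under STAT3 shRNA, a log2 fold change of -2.79 ± 0.09 (SE). The liver label was checked against 18 hepatocyte markers, of which 10 were measured. Albumin (ALB) had 0 reads in 3 libraries and 3 reads in the second STAT3 shRNA library, APOA2 had 0 reads in all 4, and APOA1 had 0 reads in both Ctrl shRNA libraries and 1 and 2 in the others. Of the 10 markers 7 were under 1 CPM in every library, and all 10 together reached 4.56 and 4.81 CPM with Ctrl shRNA and 10.4 and 7.07 CPM with STAT3 shRNA. Of the 3 tested markers 1 was higher, 1 lower and 1 did not pass. The transcription factor HNF4A was at 1.27 and 1.78 CPM against 7.20 and 4.95 CPM. TF was at 2.01 and 2.14 CPM against 0.900 and 0.435 CPM, and RBP4 at 1.17 and 0.889 CPM against 1.35 and 0.978 CPM. Most measured markers by which hepatocytes and HepG2 cells are known were thus at or near 0, and HepG2 is used below only as the label of these libraries. Of 25 markers of immune, endothelial, stromal, squamous and neuronal cells 16 were measured and 8 of these were under 1 CPM in every library. Their sum was 79.3 and 90.7 CPM with Ctrl shRNA and 74.8 and 76.7 CPM with STAT3 shRNA, and KRT5 was at 0 reads in all libraries. Of the 8 tested markers 3 were higher and 2 lower with STAT3 shRNA. In mean CPM, Ctrl shRNA first, COL1A1 (40.6 and 14.65) and GAD1 (9.06 and 4.02) were the lower ones. CD68 (12.4 and 25.96), DCN (10.87 and 14.94) and ACTA2 (3.71 and 7.78) were the higher ones. The sums above thus hold changes in both directions. The part of these markers in the results was not tested.

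Of the 54 genes 41 passed the filter on low counts and were tested, and 13 were not. With STAT3 shRNA 11 of the 41 were higher and 8 lower at an adjusted p under 0.05 (two-sided quasi-likelihood test of edgeR; p-values adjusted by Benjamini and Hochberg's method across the 15199 genes tested), and 22 did not pass. The 19 called genes were 46.3% of those tested, where 35.5% of all tested genes were called. In the higher direction the share was 26.8% against 16.8% of all tested genes, and in the lower direction 19.5% against 18.7%. Genes that pass the filter through 1 group alone, as RNF43 and FZD10 did, are selected towards a difference. These shares therefore describe the tested genes and no more. The calls of RNF43 and FZD10 are counted here and below but are no support for a difference. Values of the groups did not overlap for 32 of the 41 genes, where 70.8% of all tested genes did not overlap. The median log2 fold change was 0.13 over the 41 genes and 0.022 over all tested genes.

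The number of calls changed with the libraries kept. Without the first STAT3 shRNA library 7 genes were higher and 6 lower, and without the second 7 and 5. Without the first Ctrl shRNA library 13 were higher and 12 lower, and without the second 11 and 8. Counts over all genes moved likewise, from 2552 higher to 1128 and 1147 without a STAT3 shRNA library and to 3367 and 2536 without a Ctrl shRNA library. With a STAT3 shRNA library left out the spread comes from the Ctrl shRNA pair (chi-square per degree of freedom 13.9 across genes), and with a Ctrl shRNA library left out from the STAT3 shRNA pair (4.20); the part of this in the counts was not tested. ZNRF3, FZD10, FZD6, WNT6, WNT7B, LGR4 and DVL1 kept their call and direction in each of the 12 or 13 alternatives that gave them a value, and none of the 19 called genes changed direction in any. For FZD10 this is no support, since it passed the filter through the Ctrl shRNA libraries alone.

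**Figure D1:**
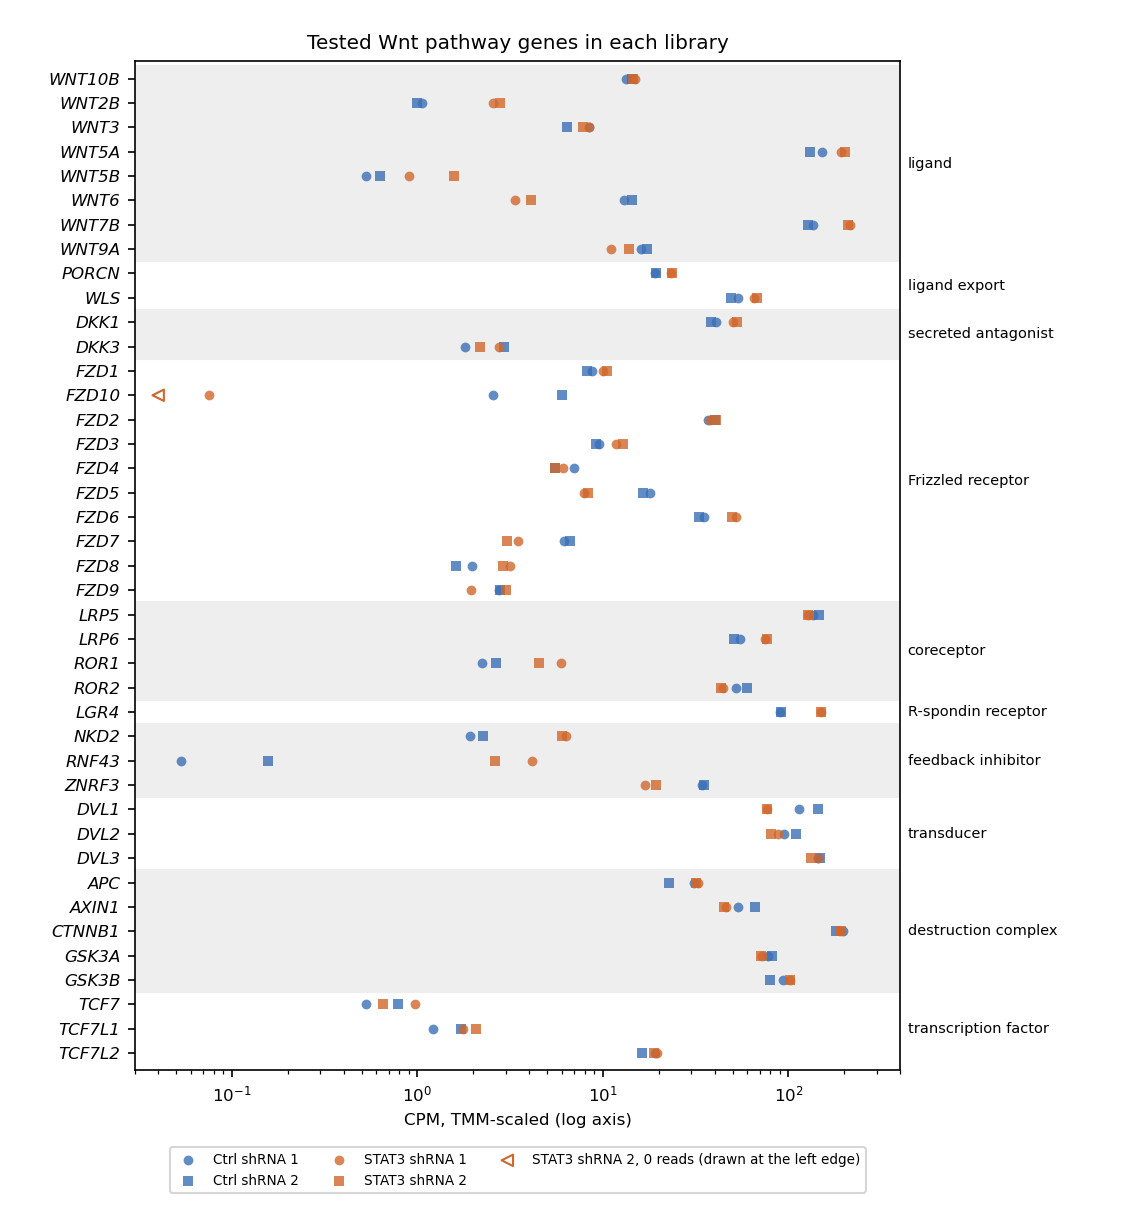
TMM-scaled CPM (log axis) of the 41 tested Wnt pathway genes in each of the 4 libraries, grouped by role; circles and squares are the first and second library of a group. RNF43 and FZD10 show the widest gaps between the groups, FZD10 with 0 reads in one STAT3 shRNA library, while the 4 points of CTNNB1 lie between 181.4 and 197.3 CPM.

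**Figure D2:**
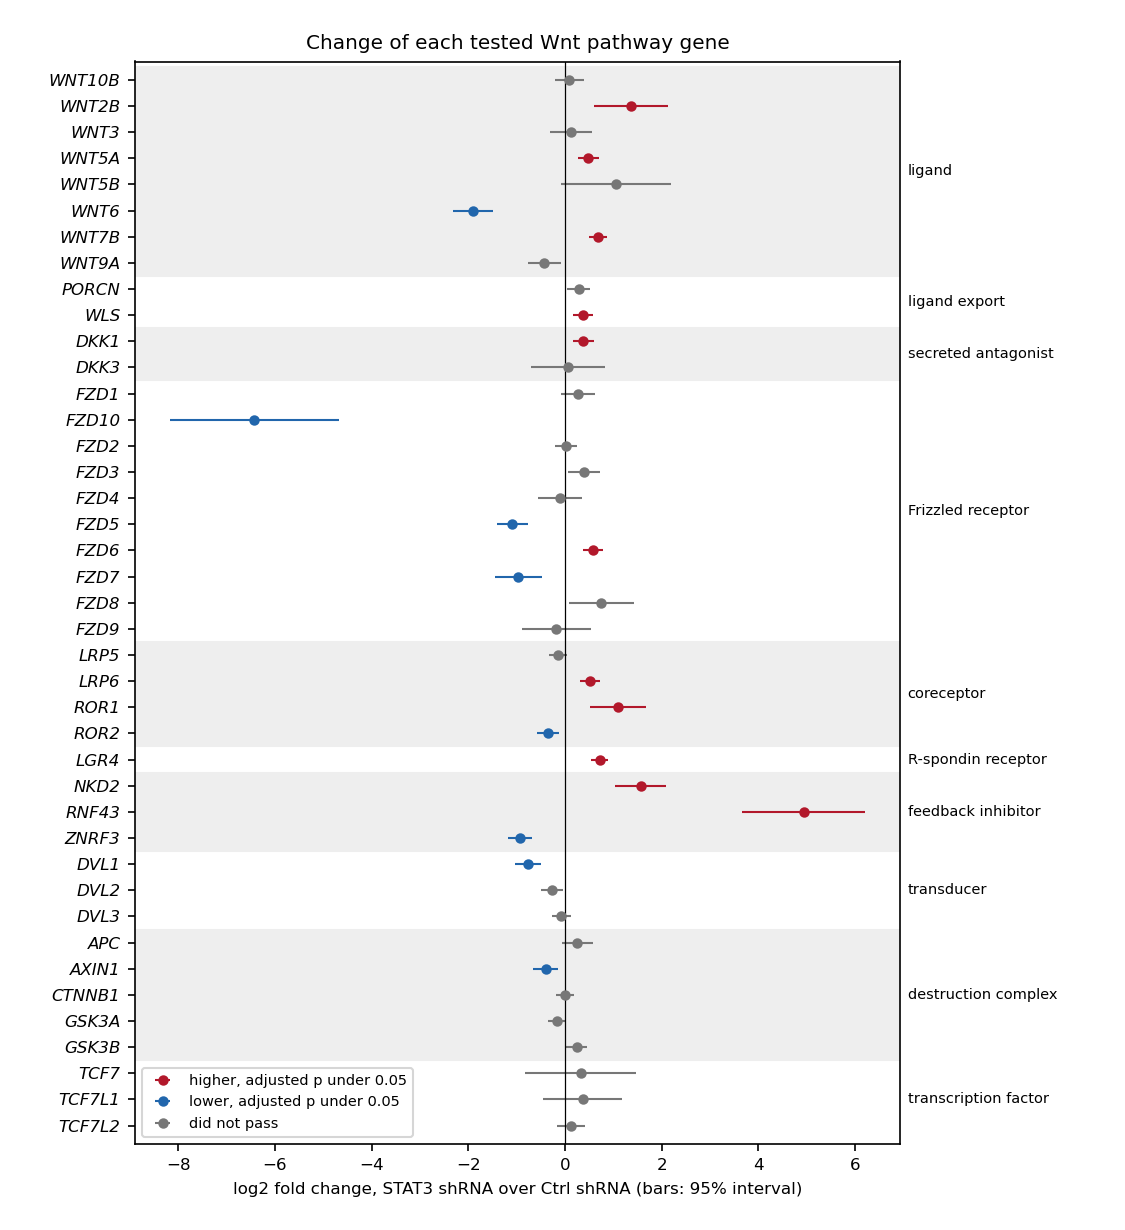
Log2 fold change (STAT3 shRNA over Ctrl shRNA) of the same 41 genes with 95% intervals from the edgeR fit. The 11 genes called higher and the 8 called lower are coloured, and every role but the transcription factors holds at least 1 call.

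Levels of genes can be compared with each other only per transcript length, for which the deposited FPKM were used. By mean FPKM in Ctrl shRNA the most abundant of the 54 were CTNNB1 at 92.0, DVL1 at 49.3, WNT5A at 47.3, DVL2 at 44.9 and GSK3A at 41.3. These are beta-catenin, a pair of Dishevelled genes, a kinase of the destruction complex and 1 ligand. Some other genes that beta-catenin is known to activate were close to 0, while ZNRF3 and DKK1, described below, were not. AXIN2 had 2 and 0 reads with Ctrl shRNA and 5 and 0 with STAT3 shRNA, LGR5, a stem cell marker and R-spondin receptor, had 1 and 0 against 5 and 4, and NKD1 had 0 and 2 against 17 and 4. LEF1, a nuclear partner of beta-catenin, had 0 reads in 3 libraries and 2 in the other. None of these 4 genes passed the filter, so none was tested, and at so few reads no direction is given for them.

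Promoter windows were read for the sequence context of the genes. RefSeq windows (GRCh38.p14, 250 bases before to 50 after a transcript start) were found for 40 of the 54 genes, 52 windows in all, and for 13 of the 19 called genes. The STAT motif TTCNNNGAA, which reads the same on both strands, was present in 3 of the 52 windows (5.77%), against 7.66% of 35116 windows of all genes. The windows with a match belong to APC, TCF7L2 and ROR1, and ROR1 is the only one of these that was called. The TCF/LEF motif CTTTGAT, searched on both strands, was in 0 of the 52 windows and in 2.62% of all. These are matches of letters in a short window and say nothing of binding. The 250 bases before the start are shown for RNF43 and WNT6, the called genes with the largest rise and the largest fall among those with a window, and for ROR1 because it holds the match, in capitals at position -127 from the start. Each runs 5′ to 3′ along the gene's own strand. The GC content of these 3 windows (300 bases) was 54.3%, 78% and 69%. RNF43 had another window further downstream, with a GC content of 43.7%, which is not shown.
RNF43 (chr17:58417535-58417784, minus strand): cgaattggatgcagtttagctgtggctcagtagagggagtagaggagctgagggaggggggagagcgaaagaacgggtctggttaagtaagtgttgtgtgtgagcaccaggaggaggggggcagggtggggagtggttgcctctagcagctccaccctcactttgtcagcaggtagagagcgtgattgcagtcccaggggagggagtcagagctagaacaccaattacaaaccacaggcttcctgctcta
WNT6 (chr2:218859555-218859804, plus strand): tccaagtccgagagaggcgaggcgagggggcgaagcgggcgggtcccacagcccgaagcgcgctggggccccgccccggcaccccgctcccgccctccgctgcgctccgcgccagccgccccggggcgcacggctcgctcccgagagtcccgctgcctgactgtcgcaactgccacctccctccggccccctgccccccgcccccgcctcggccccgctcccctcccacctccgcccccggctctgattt
ROR1 (chr1:63773767-63774016, plus strand): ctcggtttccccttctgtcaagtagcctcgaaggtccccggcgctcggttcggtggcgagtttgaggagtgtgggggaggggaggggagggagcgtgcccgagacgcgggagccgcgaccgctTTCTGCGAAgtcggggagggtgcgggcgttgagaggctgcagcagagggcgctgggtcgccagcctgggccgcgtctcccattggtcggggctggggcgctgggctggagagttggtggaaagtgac

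Among the ligands, 15 were in the data and 8 tested, of which 3 rose, 1 fell and 4 did not pass. WNT1, WNT7A, WNT8A and WNT9B were not among the genes of the series, so their levels are not known here. WNT7B, a ligand best known from lung, kidney and nervous system development, was at 135.1 and 127.4 CPM with Ctrl shRNA and at 214.3 and 208.9 CPM with STAT3 shRNA. The values of the groups stood well apart, and WNT7B rose 1.61-fold (log2 fold change 0.69 ± 0.08, SE; edgeR adjusted p = 0.000418). WNT5A, the main ligand of ROR receptors, was at 151.2 and 130.1 CPM against 191.3 and 201.7 CPM, again without overlap, and rose 1.40-fold (adjusted p = 0.00502, edgeR). Its call was lost without the second STAT3 shRNA library (adjusted p = 0.0616) and with the deposited FPKM (0.0712 and 0.0727; its lowest and highest over all alternatives 8.61e-06 and 0.0727). WNT2B, a ligand of liver and gut development, was at 1.06 and 0.993 CPM against 2.55 and 2.77 CPM (20 and 19 reads against 68 and 51). Its rise of 1.37 ± 0.34 on the log2 scale (adjusted p = 0.0134, edgeR) was not called without the first (adjusted p = 0.0818) or the second STAT3 shRNA library (0.107) or with log2(FPKM + 1) (0.063; its lowest and highest over all alternatives 0.00232 and 0.107). Where strand is not used, its reads cannot be told apart from those of the opposite-strand gene ST7L, which holds 1171 reads to the 158 of WNT2B.

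WNT6 was the ligand that fell. It lies on chromosome 2 (218859821 to 218874233, plus strand; positions here are those of GENCODE 29 on GRCh38) and went from 13.04 and 14.3 CPM to 3.34 and 4.08 CPM, a 3.71-fold fall (log2 fold change -1.89 ± 0.18, SE; edgeR adjusted p = 0.000157). No STAT3 shRNA library came near either Ctrl shRNA library. WNT9A missed the threshold at 16.1 and 17.3 CPM against 11.1 and 13.9 CPM (log2 fold change -0.42, adjusted p = 0.0590, edgeR). The log2 fold changes of the other three tested ligands were 0.095 for WNT10B, 0.13 for WNT3 and 1.07 for WNT5B, whose level was at most 1.58 CPM and whose span is shared with the opposite-strand gene FBXL14. Of the 7 untested ligands WNT4 had 3, 4, 16 and 3 reads in the 4 libraries, WNT11 had 9, 8, 15 and 8, and WNT8B had 0, 1, 7 and 3. WNT2, WNT3A, WNT10A and WNT16 had at most 5 reads in any library.

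The makeup of the pool of ligands in the data, per transcript length, followed from these values. WNT5A and WNT7B together made up 77.8% and 77.9% of the summed ligand FPKM with Ctrl shRNA and 86.8% and 87.0% with STAT3 shRNA. The share of WNT7B went from 35.5% and 33.6% to 46.8% and 42.5%, and that of WNT6 from 7.90% and 8.80% to 1.63% and 1.94%. WNT5A took 42.3% and 44.3% against 40.0% and 44.5%, where the groups overlap. Summed over the 15 ligands in the data, the deposited FPKM were 110.2 and 108.5 against 141.3 and 148.4. No test was made on shares or sums.

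**Figure D3:**
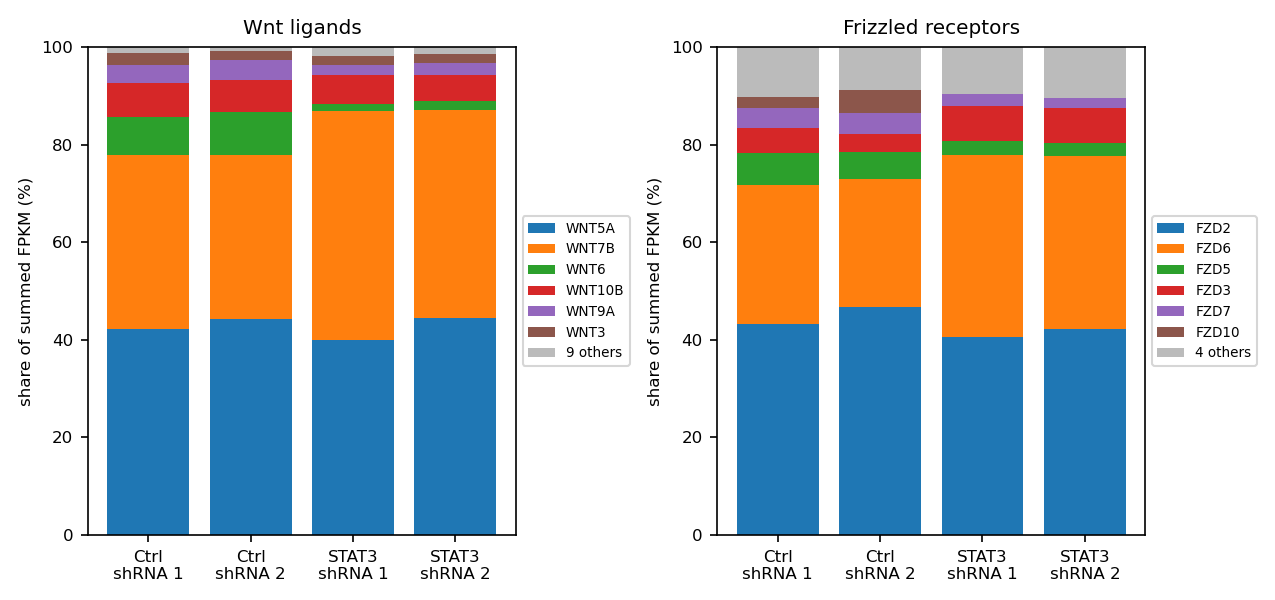
Share (%) of the summed deposited FPKM taken by each Wnt ligand in the data (left) and Frizzled receptor (right) in each library. The 6 genes with the highest mean share in Ctrl shRNA are coloured and the rest are grey. WNT7B takes a larger and WNT6 a smaller share in both STAT3 shRNA libraries, and FZD6 a larger and FZD5 and FZD7 smaller shares.

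The machinery that loads and exports ligands lay higher in both STAT3 shRNA libraries. WLS, the carrier that takes Wnt proteins to the cell surface, was at 53.3 and 49.2 CPM against 65.5 and 67.7 CPM and rose 1.30-fold (adjusted p = 0.0119, edgeR). PORCN, the acyltransferase that attaches the lipid, was at 19.0 and 19.4 CPM against 23.3 and 23.6 CPM and did not pass (log2 fold change 0.28, adjusted p = 0.0691). The call of WLS was lost without the first or second STAT3 shRNA library (adjusted p = 0.107 and 0.160) and with FPKM (0.129 at both pseudocounts; its lowest and highest over all alternatives 0.00138 and 0.160). PORCN passed with upper-quartile scaling, with the stricter filter, with a GC offset and with FPKM (its lowest and highest over all alternatives 0.0194 and 0.341).

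Of the secreted antagonists, DKK1, which binds LRP5 and LRP6 and blocks them, was at 40.6 and 38.5 CPM with Ctrl shRNA and at 50.5 and 52.6 CPM with STAT3 shRNA. The groups did not overlap and DKK1 rose 1.30-fold (log2 fold change 0.38 ± 0.09, SE; edgeR adjusted p = 0.0126). The call was lost without the first or second STAT3 shRNA library (adjusted p = 0.107 and 0.185) and with a GC offset (0.164; its lowest and highest over all alternatives 0.00257 and 0.185). DKK3, a relative that is not known as an LRP inhibitor, was at 1.80 and 2.93 CPM against 2.74 and 2.17 CPM, with overlapping groups. SFRP5, a decoy that binds ligands, had 1 read in all. SFRP1, SFRP2, SFRP3, SFRP4, DKK2 and DKK4 had no row under these symbols, so their levels are not described.

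The 10 Frizzled receptors were all tested: 1 rose, 3 fell and 6 did not pass. FZD10 changed most. It had 48 and 115 reads with Ctrl shRNA but 2 and 0 with STAT3 shRNA, or 2.55 and 6.01 CPM against 0.0750 and 0 CPM. The Ctrl shRNA values were themselves unequal, yet both lay far above the others. The ratio of reads scaled to depth was 96.7, with a 95% counting interval of 26.3 to 805.0 (exact binomial, counting error only). FZD10 passed the filter on low counts only through the Ctrl shRNA libraries, so its values are given with no edgeR p-value. Its fitted log2 fold change of -6.42 ran from -6.95 to -5.69 when 1 Ctrl shRNA library was left out and was -5.73 without the second STAT3 shRNA library. Without the first, 0 reads remained in that group and the fitted -9.33 is no bound. FZD10 is on chromosome 12 (130162459 to 130165740, plus strand).

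FZD5 and FZD7, receptors that can carry beta-catenin signals, both lie on chromosome 2 and both fell. FZD5 (207762586 to 207769563, minus strand) was at 17.9 and 16.5 CPM against 7.95 and 8.26 CPM, a 2.13-fold fall (log2 fold change -1.09 ± 0.14, SE; edgeR adjusted p = 0.000706). FZD7 (202034587 to 202038445, plus strand) was at 6.15 and 6.64 CPM against 3.49 and 3.04 CPM, a 1.95-fold fall (adjusted p = 0.00855, edgeR). The STAT3 shRNA libraries lay below the Ctrl shRNA libraries for both genes. The call of FZD7 was lost without the second STAT3 shRNA library (adjusted p = 0.0764) and with FPKM (0.0662 and 0.0871; its lowest and highest over all alternatives 0.000744 and 0.0871), and that of FZD5 with log2(FPKM + 0.1) (0.0542; its lowest and highest over all alternatives 3.06e-09 and 0.0542).

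FZD6, a receptor of planar polarity signalling, was the one Frizzled gene that rose, from 35.2 and 32.8 CPM to 52.1 and 49.5 CPM (log2 fold change 0.58 ± 0.10, SE; edgeR adjusted p = 0.00211). FZD2, at 36.7 and 40.5 CPM against 37.9 and 40.6 CPM, overlapped between the groups. Its difference of 0.023 on the log2 scale had a 95% interval of -0.20 to 0.25. Log2 fold changes of the other 5 were 0.75 for FZD8, 0.40 for FZD3, 0.27 for FZD1, -0.11 for FZD4 and -0.18 for FZD9, with adjusted p-values of 0.0673 to 0.711 in the edgeR test. Reads of FZD4 cannot be told apart from those of the opposite-strand gene PRSS23 where strand is not used. Per transcript length FZD2 and FZD6 together held 71.7% and 72.9% of the summed Frizzled FPKM with Ctrl shRNA and 77.9% and 77.6% with STAT3 shRNA, and FZD5 and FZD7 together 10.9% and 9.98% against 5.02% and 4.78%.

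The 4 coreceptors did not all move in one direction: 2 rose, 1 fell and 1 did not pass. LRP6, which pairs with Frizzled in beta-catenin signalling, was at 54.7 and 51.0 CPM against 75.0 and 76.5 CPM and rose 1.43-fold (log2 fold change 0.52 ± 0.09, SE; edgeR adjusted p = 0.00235). Its relative LRP5 was at 136.1 and 146.7 CPM against 127.7 and 128.3 CPM and did not pass (log2 fold change -0.14, adjusted p = 0.208). The call of LRP6 was lost with FPKM (adjusted p = 0.186 and 0.181; its lowest and highest over all alternatives 1.21e-05 and 0.186). ROR1, a receptor of WNT5A that is high in embryonic tissue and some tumours, was at 2.23 and 2.67 CPM against 5.93 and 4.51 CPM and rose 2.14-fold (adjusted p = 0.0108, edgeR). ROR2, its paralog, was at 52.2 and 59.7 CPM against 44.2 and 43.4 CPM and fell 1.28-fold (adjusted p = 0.0243, edgeR). The ROR2 call was lost without the first or second STAT3 shRNA library (adjusted p = 0.173 and 0.208) and with FPKM (0.373 and 0.363; its lowest and highest over all alternatives 0.000361 and 0.373). The ROR1 call was lost without the first STAT3 shRNA library (0.142) and with FPKM (0.194 and 0.222; its lowest and highest over all alternatives 0.000466 and 0.222). Whether ROR1 and ROR2 differ in their change was not tested.

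LGR4, a receptor for R-spondins, was at 90.5 and 91.6 CPM with Ctrl shRNA and at 149.9 and 149.8 CPM with STAT3 shRNA. The libraries of a group were almost level, and LGR4 rose 1.65-fold (log2 fold change 0.72 ± 0.08, SE; edgeR adjusted p = 0.000308). LGR6 had 1 read in all, and LGR5 is described above. Of the R-spondins that bind these receptors, RSPO3 had 6 and 4 reads with Ctrl shRNA and 2 and 0 with STAT3 shRNA and was not tested. RSPO1, RSPO2 and RSPO4 were not among the genes of the series.

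The 2 ligases that LGR4 and R-spondins hold back went in opposite directions in the counts. ZNRF3 (chromosome 22, 28883592 to 29057487, plus strand) was at 34.1 and 34.98 CPM with Ctrl shRNA and at 16.9 and 19.5 CPM with STAT3 shRNA. That was a 1.91-fold fall without overlap (log2 fold change -0.93 ± 0.11, SE; edgeR adjusted p = 0.000461). RNF43 (chromosome 17, 58352500 to 58417595, minus strand) had 1 and 3 reads with Ctrl shRNA and 111 and 48 with STAT3 shRNA, or 0.0530 and 0.157 CPM against 4.16 and 2.61 CPM. The ratio of reads scaled to depth was 33.5, with a 95% counting interval of 12.8 to 124.5 (exact binomial, counting error only). RNF43 passed the filter on low counts only through the STAT3 shRNA libraries, so its values are given with no edgeR p-value. Its log2 fold change of 4.94 ± 0.56 (SE) was 4.37 without the first Ctrl shRNA library, 5.86 without the second, 4.55 without the first STAT3 shRNA library and 5.23 without the second. Summed over both ligases the deposited FPKM were 6.36 and 9.64 against 3.62 and 4.31. The 9.64 holds an RNF43 value of 2.34 that stands on 3 reads and is described next. In CPM, which are not per transcript length, the sums were 34.1 and 35.1 against 21.0 and 22.1.

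The deposited FPKM of RNF43 did not follow its counts. They were 0.03 and 2.34 with Ctrl shRNA and 0.99 and 1.20 with STAT3 shRNA, so the groups overlapped. The difference on the log2(FPKM + 1) scale was 0.17 (limma adjusted p = 0.837). FPKM per CPM of a gene should be nearly equal in all libraries. For RNF43 it was 0.566, 14.9, 0.238 and 0.460, while over the 40 tested genes with FPKM above 0 in every library the ratio of the highest to the lowest had a median of 1.15. Except for RNF43 that ratio reached at most 2.88 (TCF7). The span of RNF43 is shared with SUPT4H1 on the same strand (4375 reads, against 163 of RNF43), and 76.5% of its longest transcript is shared with AC004687.2, which had 1, 0, 0 and 12 reads. The rise of RNF43 is therefore uncertain, and the cause of the mismatch was not tested. NKD2, which binds Dishevelled, was at 1.91 and 2.25 CPM against 6.34 and 6.03 CPM and rose 2.97-fold (log2 fold change 1.57 ± 0.23, SE; edgeR adjusted p = 0.00128). The groups did not overlap in CPM or in FPKM (0.92 and 1.71 against 3.51 and 3.17), and with log2(FPKM + 0.1) it narrowly missed the threshold (adjusted p = 0.0540; its lowest and highest over all alternatives 1.03e-07 and 0.0540).

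**Figure D4:**
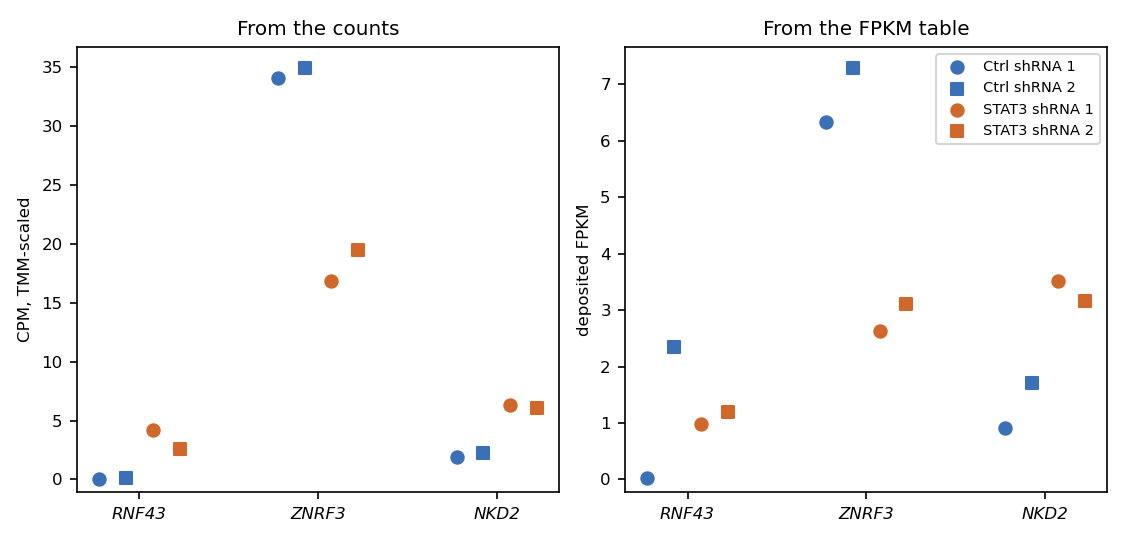
CPM from the counts (left) and deposited FPKM (right) of RNF43, ZNRF3 and NKD2 in each library. ZNRF3 and NKD2 separate the groups in both units, whereas RNF43 does so in CPM but not in FPKM, where the second Ctrl shRNA library is highest at 2.34.

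Of the Dishevelled transducers DVL1 fell, and the other two did not pass. DVL1 (chromosome 1, 1335276 to 1349350, minus strand) was at 113.9 and 145.2 CPM against 76.5 and 76.4 CPM, a 1.69-fold fall (log2 fold change -0.76 ± 0.12, SE; edgeR adjusted p = 0.00145). The Ctrl shRNA libraries were spread but both lay above the STAT3 shRNA libraries. DVL2 was at 94.2 and 109.7 CPM against 88.2 and 80.9 CPM (log2 fold change -0.27, adjusted p = 0.0651), and DVL3 at 144.5 and 147.3 CPM against 144.8 and 132.6 CPM (-0.073, adjusted p = 0.538, edgeR). DVL2 passed in the edgeR test without the first Ctrl shRNA library and without a filter on low counts (its lowest and highest over all alternatives 0.000878 and 0.412). Per transcript length DVL1 was the leading Dishevelled gene with Ctrl shRNA (37.1% and 38.4% of the summed FPKM) and DVL2 with STAT3 shRNA (36.8% in both libraries).

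Of the 6 destruction complex genes, CTNNB1 included, 5 were tested, 1 fell and 4 did not pass. CTNNB1, which encodes beta-catenin, was at 197.3 and 181.4 CPM against 188.9 and 191.5 CPM, and the groups overlapped. The log2 difference was 0.006 with a 95% interval of -0.18 to 0.19. With a GC offset it became -0.23 (adjusted p = 0.0257, edgeR; its lowest and highest over all alternatives 0.0257 and 0.999). AXIN1, the scaffold, was at 53.7 and 66.0 CPM against 45.9 and 45.1 CPM and fell 1.32-fold (adjusted p = 0.0247, edgeR). That call was lost without the first or second STAT3 shRNA library (0.137 and 0.165), with FPKM (0.183 and 0.176) and with a GC offset (0.118; its lowest and highest over all alternatives 8.07e-05 and 0.183). The kinases GSK3A and GSK3B had log2 fold changes of -0.16 and 0.24 (adjusted p = 0.174 and 0.0787), and APC, which presents beta-catenin to the kinases, 0.26 (adjusted p = 0.190, edgeR).

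None of the nuclear factors passed. TCF7L2, the main TCF gene here, was at 19.1 and 16.3 CPM against 19.7 and 18.8 CPM (log2 fold change 0.12, adjusted p = 0.498, edgeR). TCF7L1 was at 1.22 and 1.73 CPM against 1.76 and 2.07 CPM, and TCF7 under 1 CPM in every library. The span of TCF7 is shared with SKP1, which has 23868 reads to its 63, so its values are uncertain.

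Several of the genes that fell lie where neighbouring genes fell as well. For each gene the median log2 fold change was taken over up to 25 tested genes on either side, which is 0.042 in the median over all tested genes. Around WNT6 it was -0.69, and 38 of 50 neighbours were called lower, where 18.7% of all tested genes were. Around FZD5 it was -0.44 (31 of 50 lower) and around FZD7 -0.32 (23 of 50), with neighbourhoods on the same arm of chromosome 2. These neighbourhoods spanned 16.7 Mb and 10.3 Mb and may share genes, so the counts are not separate observations. DVL1 and AXIN1, near chromosome ends, had neighbour medians of -0.35 each. WNT6 fell by 1.20 more than its neighbours on the log2 scale, FZD5 by 0.65, FZD7 by 0.64 and DVL1 by 0.41, while AXIN1 differed from its neighbours by -0.044. ZNRF3, FZD10 and ROR2 lay among neighbours with medians of -0.060, -0.14 and 0.13. Among genes that rose the neighbour medians ran from -0.12 (NKD2) to 0.31 (DKK1, 0.077 above its neighbours). The part of the chromosomal segments in these calls was not tested.

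**Figure D5:**
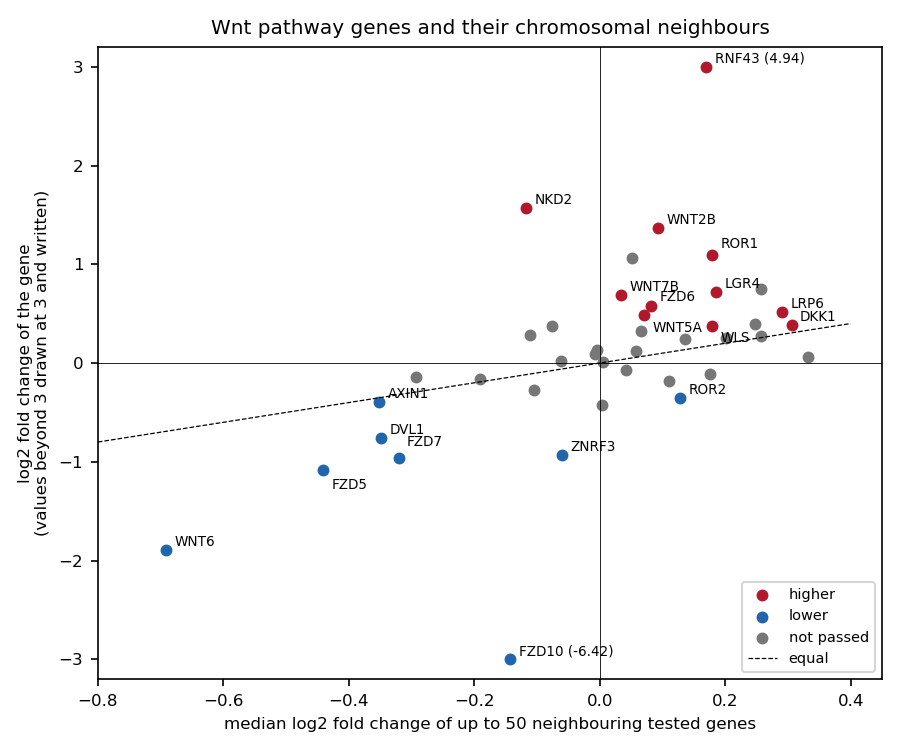
Log2 fold change of each tested Wnt pathway gene against the median log2 fold change of up to 50 tested neighbours on its chromosome; the dashed line marks equal values, and RNF43 and FZD10 are drawn at the edge with their values written. WNT6, FZD5, FZD7, DVL1 and AXIN1 lie at neighbour medians from -0.69 to -0.32, and AXIN1 sits next to the line.

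GC content of the transcripts moved with the changes too. Over the 41 genes Spearman's rank correlation between GC content (longest transcript) and log2 fold change was -0.355, and over 14545 tested genes -0.339. These are descriptions across genes that share the same 4 libraries. The median GC content was 44.1% for the 11 genes that rose and 57.4% for the 8 that fell. With an offset for GC content the median of all tested genes shifted from 0.022 to -0.087, and the split of all calls from 2552 higher and 2844 lower to 1717 and 3632. The offset was fitted to CPM without TMM scaling, and the TMM factors (0.979 and 0.951 against 1.03 and 1.04) were applied as well. Scaling between the groups thus entered again, so every value given here with a GC offset mixes scaling with GC content. The size of either part was not tested. Under the offset LRP6, FZD6, WNT5A and WLS had log2 fold changes of 0.23, 0.29, 0.23 and 0.22, down from 0.52, 0.58, 0.48 and 0.38. LGR4 had 0.45 and DVL1 -0.48, and all 6 were still called. PORCN, CTNNB1, FZD8 and FZD2 did not pass without the offset and passed with it (adjusted p = 0.0194, 0.0257, 0.0366 and 0.0390). WNT7B and NKD2, whose transcripts are rich in GC, rose more under it (0.87 and 1.86).

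Other components of the pathway moved in both directions. The list of such genes has 98 symbols, of which 84 were measured and 76 tested. Of these 21 rose (27.6%) and 18 fell (23.7%), against 16.8% and 18.7% of all tested genes, with a median log2 fold change of 0.11. The 21 include APCDD1 and the 18 include CAMK2D. Each passed the filter on low counts only through the group where it is high, so their calls are no support. With a GC offset 11 rose and 18 fell, and without the first or second STAT3 shRNA library 7 and 7 rose and 8 and 5 fell. TLE4, a corepressor bound by TCF factors, was at 18.2 and 18.4 CPM against 41.9 and 46.7 CPM and rose 2.42-fold (adjusted p = 8.22e-05, edgeR). DAAM1, a formin that binds Dishevelled, rose 1.92-fold, PTK7, a coreceptor of polarity signalling, 1.46-fold, and the proteoglycan SDC1 1.45-fold. FRAT2, a GSK3-binding protein, was at 34.8 and 40.2 CPM against 18.0 and 20.5 CPM and fell 1.95-fold (adjusted p = 0.000536, edgeR). BCL9L, a coactivator of beta-catenin, fell 1.46-fold, RUVBL1, an ATPase that binds beta-catenin, 1.42-fold, and the kinase CSNK1D 1.39-fold. The calls of PTK7, RUVBL1, BCL9L and CSNK1D were lost with FPKM (highest adjusted p-values 0.108, 0.0578, 0.109 and 0.346), and those of BCL9L and CSNK1D also without the second STAT3 shRNA library (0.0582 and 0.0515). Over all alternatives the lowest values of the 4 genes were 5.64e-05, 1.29e-06, 1.45e-07 and 1.15e-05.

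Genes listed as beta-catenin targets split as well. Of 69 symbols 55 were measured and 38 tested, with 10 higher (26.3%) and 11 lower (28.9%), against 16.8% and 18.7% of all tested genes, and a median log2 fold change of -0.042. The 10 include APCDD1, which passed the filter on low counts only through the STAT3 shRNA libraries, so its call is no support. APCDD1 and NOTUM are also on the list of other components, so the lists overlap. With either STAT3 shRNA library left out 9 were higher and 5 lower. The adhesion genes CLDN1 and EPCAM rose, CLDN1 from 32.5 and 28.96 CPM to 118.8 and 127.6 CPM (4.01-fold, adjusted p = 4.51e-06, edgeR) and EPCAM from 2.76 and 2.88 CPM to 10.4 and 9.78 CPM (3.58-fold). EPHB2, an ephrin receptor of intestinal crypts, rose 10.1-fold from 2.01 and 1.41 CPM to 17.67 and 17.1 CPM, and the aldehyde dehydrogenase ALDH3A1 1.97-fold. TBX3, a transcription factor that hepatic beta-catenin activates, fell from 72.2 and 75.2 CPM to 35.3 and 33.6 CPM (2.14-fold, adjusted p = 7.80e-05, edgeR). The adhesion molecule L1CAM fell 1.73-fold, the receptor PLAUR 2.01-fold and the zinc finger gene ZNF703 1.82-fold. Of the 38 tested genes 17 did not pass. Among widely used targets, named after their values were seen, MYC and CCND1 did not pass (log2 fold changes -0.0057 and 0.19). In the counts MMP7, SOX4 and CD44 rose (1.91, 0.67 and 0.38, edgeR adjusted p = 0.000256, 0.00234 and 0.0107). NOTUM and BIRC5 fell (-0.71 and -0.27, edgeR adjusted p = 0.0277 and 0.0312). In deposited FPKM CD44 went the other way, from 63.6 and 77.4 with Ctrl shRNA to 60.3 and 52.4 with STAT3 shRNA, so its rise is uncertain. MMP7, SOX4, NOTUM and BIRC5 kept their direction in FPKM. The cause of the mismatch was not tested. GLUL, the marker of hepatocytes near the central vein, did not pass either, at means of 48.9 CPM with Ctrl shRNA and 43.3 CPM with STAT3 shRNA. CYP2E1, a hepatocyte target, had at most 4 reads in any library.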

How the data were processed

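In all, 4 libraries were analysed, 2 per group, from 2 tables with the same 27452 genes. One table holds raw counts and the other FPKM, both as the authors deposited them, per gene. For aligner, counter, build, annotation and strand the answer is "not given in the sources used here". Columns were matched to samples by cell line, group and number, and the columns named "Si" were taken as STAT3 shRNA. Members and lists were chosen with earlier results of these data known.

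The main test was that of edgeR 4.0.16, run in R 4.3.3 on the counts (TMM, filterByExpr, glmQLFTest, group as the only term, all 4 libraries), and p-values were adjusted over 15199 genes. CPM use TMM-scaled library sizes. FPKM were compared with limma 3.58.1 on log2(FPKM + 1) and log2(FPKM + 0.1), scales that understate changes of low genes. Alternatives were other scalings and filters, a block, left-out libraries, DESeq2 1.42.0, FPKM and a lowess GC offset. That offset was fitted to CPM without TMM scaling and used together with the TMM factors, so it also changed the scaling. Positions and GC content are from GENCODE 29 (GRCh38), in which 25996 of the IDs were found. Copies were sought with blastn 2.17.0 (at least 95% identity over 50% of a transcript) and found for RNF43 only, among the 41 tested genes. Every member was named, and from each list the 4 smallest p-values per direction at 1 CPM or more in the higher group; other list genes were chosen after their values were seen. Read floors and the binomial intervals of read ratios cover counting error only, and intervals of log2 fold changes come from the edgeR fit.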

Additional observations from a re-analysis of the deposited data

How the results depend on the processing

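All 19 called genes kept their direction in every alternative that gave a value, and 12 lost the call in at least 1. With RLE scaling, DESeq2 and the replicate block the same 19 were called. With log2(FPKM + 1) 6 of the family were higher and 5 lower, and with log2(FPKM + 0.1) 6 and 4. All genes called higher were then 1374 and 1329 and lower 1208 and 1186, other Wnt components 8 and 8 higher and 5 and 5 lower, and beta-catenin targets lower 4 and 4. With the GC offset, which also changed the scaling, 11 other components were higher. The cause of these differences was not tested. With 1 library left out the counts ran from 7 to 13 (family, higher), 5 to 12 (family, lower), 1128 to 3367 and 1399 to 3924 (all genes, higher and lower), 7 to 27 and 5 to 21 (other components), and 9 to 11 and 5 to 12 (targets). A lone library is then assumed to vary like the pair that remains.

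Of the 22 genes that did not pass, 11 passed in at least 1 alternative. Among these 54 genes, signs turned only for genes that did not pass. With the GC offset LRP5 was at 0.041, APC at -0.029, GSK3B at -0.016, FZD9 at 0.12, TCF7L2 at -0.072 and CTNNB1 at -0.23. CTNNB1 was also at -0.010 with RLE scaling, -0.00019 without a filter, -0.010 with DESeq2, and -0.075 and -0.076 with FPKM. With 1 library left out the ranges were -0.058 to 0.035 for CTNNB1, -0.080 to 0.089 for FZD2, -0.26 to 0.033 for FZD4, -0.50 to 0.11 for FZD9, -0.052 to 0.31 for WNT3, -0.28 to 0.45 for DKK3 and -0.011 to 0.63 for TCF7.

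The shared replicate numbers were not taken to pair the libraries, since nothing in the labels says that a number marks a shared batch. Deviations of same-numbered libraries from their group means had a correlation of -0.029 across genes. With 2 libraries per group this is a single value, which cannot show whether same-numbered libraries shared a batch. The replicate block gave 11 higher and 8 lower genes of the family and 2594 higher and 2853 lower genes in all.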

Other observations

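Values here are given in the order of the libraries, Ctrl shRNA first. The genes named here are from the other Wnt components and were chosen after their values were seen, so they stand for no group. Fold changes and p-values here are those of the main test alone. The phospholipase PLCB1 went from 3.92 and 3.71 CPM to 2.33 and 1.58 CPM (log2 fold change -0.95, edgeR adjusted p = 0.0344). Its deposited FPKM overlapped between the groups (1.47 and 1.15 against 0.94 and 1.46). The Wnt coreceptor RYK went from 62.3 and 61.4 CPM to 83.3 and 80.7 CPM (0.41, adjusted p = 0.00598) and the GTPase RAC1 from 323.2 and 278.6 CPM to 374.9 and 383.9 CPM (0.33, adjusted p = 0.0217). The polarity gene VANGL1 did not pass (-0.090, adjusted p = 0.513). Of the Groucho corepressors besides TLE4, TLE1 went from 6.63 and 8.05 CPM to 12.8 and 11.1 CPM (0.71, edgeR adjusted p = 0.0132). TLE3 went from a mean of 76.6 CPM to 54.9 CPM (-0.48, adjusted p = 0.00345) and TLE2 from 19.8 to 14.5 CPM (-0.45, adjusted p = 0.0193, edgeR). The deposited FPKM of TLE2 overlapped between the groups (8.35 and 13.15 against 8.69 and 8.4). KREMEN1, a receptor of DKK1, went from 10.4 and 12.8 CPM to 6.23 and 5.92 CPM (-0.93, adjusted p = 0.00398). APCDD1, a membrane inhibitor of Wnt ligands, had 0 reads in each Ctrl shRNA library but 18 and 16 reads with STAT3 shRNA, and CAMK2D, a calcium-dependent kinase, had 30 and 21 reads against 9 and 6. APCDD1 passed the filter on low counts only through the STAT3 shRNA libraries, so its values are given with no test, as are those of CAMK2D. Both are counted among the calls of the lists above.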
